A study of Mus musculus with 419 samples.

Results

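Id1, Id2, Id3, Smad6 and Smad7 are classical targets of bone morphogenetic protein (BMP) signalling, and Lefty1, Lefty2 and Nodal are classical targets of Nodal signalling. These 8 genes were chosen by name, out of 48087 genes with a row, and their 19 annotated transcript rows were followed in 419 single mouse embryonic stem cells. The cells belong to F1-21.6, a female hybrid line with 1 chromosome set from strain 129 and 1 from strain CAST, and all of them were cultured with serum and leukemia inhibitory factor on laminin, with no feeder cells, and taken in G1 phase. There is no treated, mutant or control group: every cell has the same genotype and culture, and the comparison the design holds is 129 against CAST within each cell. Since separate cultures are not named in the labels, the cells count as 1 sample of 1 line, no p-value was computed, and all correlations over cells are descriptions.

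BMP ligands bind paired receptor kinases that phosphorylate Smad1, Smad5 and Smad9, which enter the nucleus with Smad4 and switch on the Id genes. The Id proteins bind E proteins and keep them from DNA, and in serum cultures of mouse embryonic stem cells they are known to help leukemia inhibitory factor hold back differentiation. Smad6 and Smad7 are inhibitory Smads that the pathway induces against itself. Nodal acts through the co-receptor Tdgf1, activin receptors, Smad2, Smad3 and the DNA-binding partner Foxh1, and among its targets are Nodal itself and the secreted inhibitors Lefty1 and Lefty2, which close a feedback loop.

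The Lefty genes are near copies, which bears on every value given for them. Their coding sequences have 1107 bases each, align with 0 gaps and are identical at 1017 positions (91.9%), with a longest identical stretch of 140 bases. Of the 31-base words of the Lefty1 transcript, 25.0% also occur in a transcript of another gene, Lefty2, while 17.6% of those of the Lefty2 transcript occur in other genes, Lefty1 included. Reads from such stretches could have been counted for either gene, and the sources used here do not say how the authors placed them. Over coding bases 1 to 120 (GENCODE M21 transcripts) the copies differ at 30 positions, so reads from that end can be told apart.

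Promoter sequence was at hand for 4 of the 8 genes, Id2, Id3, Nodal and Smad6 (RefSeq, GRCm38.p6, 250 bases before to 50 after the start), and was searched on both strands for 2 short words that Smad proteins are known to bind and for 1 form of the E box. The GC-rich Smad word GGCGCC was in the Id2 window and the Smad box CAGAC, or GTCTG on the other strand, was in the Id3 window at 2 places. Neither word, nor the E box form CACGTG, was in the Nodal or the Smad6 window. Among all 32851 promoters of the same length, 11.9% hold GGCGCC, 49.6% hold CAGAC or GTCTG, and 7.15% hold CACGTG, so these matches are a description of the letters only. The GENCODE transcript of Id3 starts upstream of the RefSeq start, so both Id3 matches lie inside it. The matches are shown in 30 bases each, with the word in capitals, to set the Id genes' Smad words beside their values.
Id2, chr12:25096306-25096335, minus strand, 231 bases before the RefSeq start: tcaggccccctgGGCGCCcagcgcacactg
Id3, chr4:136143643-136143672, plus strand, 167 bases before the RefSeq start: tgtcctcggcgtCAGACcagcctaaggaag
Id3, chr4:136143742-136143771, plus strand, 68 bases before the RefSeq start: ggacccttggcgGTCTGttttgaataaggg

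RamDA-seq reads full-length total RNA from single cells without molecular identifiers. The authors deposited 1 table of whole numbers per allele, scaled to similar totals, so values are in their scaled units and the depth in reads is unknown. Summed over both alleles, a cell's total had a median of 925852 and ran between 698363 and 1477656, and cells were sequenced in lanes 2 to 6, which hold 88, 83, 82, 80 and 86 cells. A gene is represented by its row with the highest sum, a cell is called on when the row is above 0 in either table, and intervals on shares of cells are exact binomial 95% intervals that cover counting error only. Spreads are the SD or the range over the 5 lanes. The correlation of each of the 8 genes with the cell total lay between -0.06 and 0.13 (Spearman's rho, n = 419), and with the number of rows above 0 between -0.10 and 0.12.

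Stem cell markers were read in most cells. All 8 naive and all 4 core pluripotency markers examined were on in at least 50% of cells, with a median share of cells on of 97.3% and 99.8%. Tbx3 had the lowest share among them, 68.5%. Of 11002 autosomal genes that passed a filter on low values, 95.3% met that limit too, so these counts are close to that background. No mesendoderm marker of 5 reached 50%, 1 of 6 primitive endoderm markers did (Sox7), and so did 3 of 6 trophectoderm, 2 of 5 formative, 3 of 5 neural and 2 of 6 fibroblast markers. The lane means of some fibroblast markers differed widely: Acta2 averaged 18.7 to 209 and Col1a1 6.35 to 56.98 over the lanes. Both had a median of 0, and their highest cells had 9834 and 2505, so single cells weigh heavily in these means.

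Across the 8 genes, 6 were on in at least 50% of cells, and the 2 Lefty genes were not. The same limit was met by 95.3% of the 11002 autosomal genes that passed the filter on low values (a summed value of at least 1000 and at least 10% of cells on), a filter that all 8 genes passed. Per kilobase of transcript, Id2 had the highest mean level, 34.3 (26.6 to 39.2 over lanes). It was followed by Id1 with 18.5 per kilobase (16.5 to 21.2), and the lane range of Id2 does not overlap with that of Id1 or any other of the 8 genes. Smad7 at 13.8 per kilobase (12.5 to 14.3) and Nodal at 13.2 (11.0 to 15.4) overlap, as do Nodal and Id3 at 11.4 (10.69 to 11.95). Lefty1 averaged 9.39 per kilobase (1.98 to 16.7) and Lefty2 5.87 (1.69 to 11.4), ranges so wide that they overlap with each other and with those of Nodal, Id3 and Smad6, and that of Lefty1 also with those of Id1 and Smad7. Smad6 was lowest, 2.86 per kilobase (2.66 to 3.08), within the ranges of both Lefty genes.

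**Figure D1:**
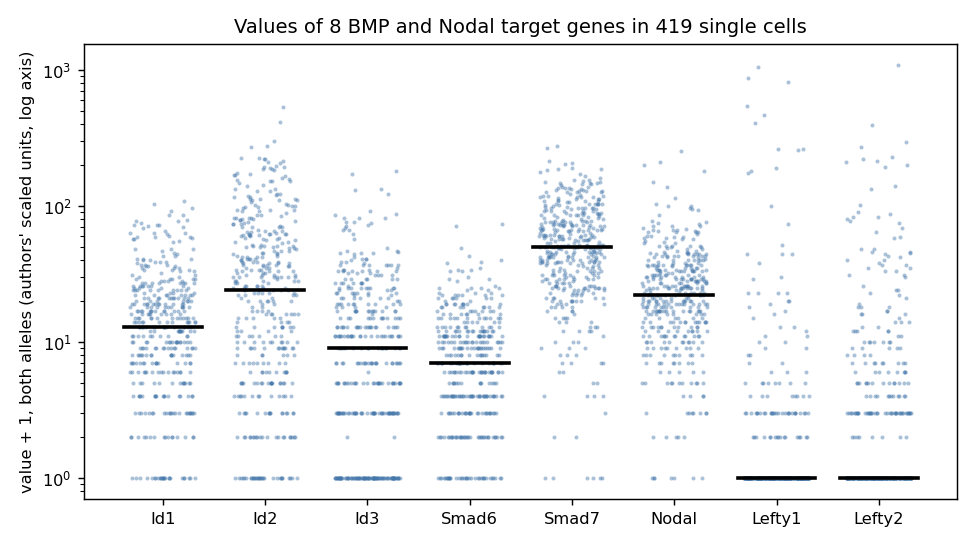
Value of each gene in each of 419 cells, both alleles summed, plus 1 on a log axis in the authors' scaled units; each point is a cell and each black line is the median. Nodal, Smad7 and the Id genes have their medians between 8 and 49, whereas the medians of Lefty1 and Lefty2 are 0 and single cells reach 1052 and 1087.

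Id1 (ENSMUST00000038368, chr2:152736251-152737410, plus strand) was on in 394 of 419 cells, 94.03% (91.3% to 96.1%). Its value over cells had a lowest of 0 and a median of 12, its highest cell had 12 from 129 and 96 from CAST, and its mean was 17.3 ± 1.67 (SD, n = 5 lanes). A second coding row held 3.06% of the gene's sum. The gene is read in nearly every cell at a low to moderate level, and the 4 highest cells hold 5.47% of its sum.

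Id2 (ENSMUST00000020974, chr12:25093801-25096092, minus strand) was on in 92.4% of cells (89.4% to 94.7%), close to the share of Id1. Its values were more spread: the lowest was 0, the median 23, the highest 529, and the upper 10% of cells lay at 115 or more. The mean was 43.5 ± 6.34 (SD, n = 5 lanes), between 33.8 and 49.8 over lanes. Id2 thus varied from cells without a value to cells far above the median, and it had 1 row in the tables.

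Id3 (ENSMUST00000008016, chr4:136143497-136145392, plus strand) was on in 321 cells, 76.6% (72.3% to 80.6%), the lowest share among the Id genes. Its lowest value was 0, its median 8 and its highest 180, with a mean of 14.6 ± 0.72 (SD, n = 5 lanes). A retained-intron row was on in 43 cells and a processed transcript in 14. The binomial interval of Id3 lies wholly below those of Id1 and Id2. The part of detection in this gap was not tested. All 3 Id genes were on together in 67.3% of cells, and 1 cell had none of them.

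Smad6 (ENSMUST00000041029, chr9:63953076-64022059, minus strand), which acts mainly on the BMP branch, was on in 91.4% of cells (88.3% to 93.9%). Its values ran between 0 and 72 with a median of 6 and a mean of 8.50 ± 0.44 (SD, n = 5 lanes). Smad7 (ENSMUST00000026999, chr18:75367529-75395935, plus strand), which acts on both the BMP and the Nodal branch, was on in 413 cells, 98.6% (96.9% to 99.5%). Its median was 49, its highest value 274 and its mean 59.0 ± 3.25 (SD, n = 5 lanes). Smad7 was the most evenly read of the genes, with 3.85% of its sum in the 4 highest cells. It is also the gene with the most signal outside its main row: a shorter coding transcript (ENSMUST00000174411) was on in 375 cells (89.5%), averaged 10.3 and held 14.3% of the gene's sum.

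Nodal (ENSMUST00000049339, chr10:61417972-61425338, plus strand), the ligand, was on in 412 cells, 98.3% (96.6% to 99.3%). Its lowest value was 0, its median 21 and its highest 252, and its mean was 27.7 ± 3.76 (SD, n = 5 lanes). The inhibitors it induces were read in far fewer cells. Lefty1 (ENSMUST00000037361, chr1:180935022-180938400, plus strand) was on in 110 cells, 26.3% (22.1% to 30.7%), and Lefty2 (ENSMUST00000085797, chr1:180893108-180899103, plus strand) was on in 181 cells, 43.2% (38.4% to 48.1%). Over lanes the share of cells on ran between 20.7% and 33.7% for Lefty1 and between 38.6% and 51.2% for Lefty2, so the intervals and the lane ranges of the 2 genes do not overlap.

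The mean of Lefty1 hangs on a few cells. Its lowest and median values were 0, 90% of cells lay at 7 or below, and the highest was 1052. The 4 highest cells had 1052, 872, 811 and 541 and together made up 51.4% of the gene's sum, and they came from 3 lanes. As a result the mean of 15.2 ranged from 3.21 in lane 4 to 27.0 in lane 6. Lefty2 was similar but less extreme: 90% of cells lay at 30 or below, the highest value was 1087, the next 4 were 392, 293, 271 and 226, and its 4 highest cells made up 33.6% of the total. Its mean of 14.5 ranged from 4.18 in lane 2 to 28.2 in lane 5.

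Low values make up much of what counts as on for these genes. In 46 of the 110 cells with Lefty1 and in 50 of the 181 cells with Lefty2 the sum of both alleles was 1 or 2. With a value of at least 10 required, 37 cells (8.83%) had Lefty1 and 72 (17.2%) had Lefty2, beside 64.4% of cells with Id2, 57.8% with Id1, 46.3% with Id3, 34.1% with Smad6, 92.8% with Smad7 and 81.4% with Nodal. At that limit 4 of the 8 genes, Id1, Id2, Smad7 and Nodal, were on in at least 50% of cells. Lefty1 was the gene on in the fewest cells at each limit.

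The comparison of alleles asked how the 2 copies of each gene contribute. Id3 has no allele information: in 100% of the cells with a value of at least 10 its alleles lay within 10% of each other, and their correlation over cells was 0.999, so the tables do not tell its alleles apart. It is left out of the allele results, which therefore cover 7 genes. The 129 share is the 129 sum over the sum of both alleles, and its median over 10459 autosomal genes with allele information was 50.0%.

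Id1 was read mostly from CAST. Its sum over cells was 1791 from 129 and 5467 from CAST, a 129 share of 24.7% ± 3.75 (SD, n = 5 lanes), below 31% in every lane (20.7% to 30.5%). The 129 allele was seen in 48.0% of cells and the CAST allele in 88.3%. Id1 was the 1 gene of 7 past a 2-fold difference between the allele sums, where 11.0% of autosomal genes were past it in either direction, so a count of 1 in 7 is close to that background.

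Id2 leaned the same way by less than 2-fold, with 6957 from 129 and 11288 from CAST and a 129 share of 38.1% ± 2.71 (SD, n = 5 lanes; 34.9% to 41.5%). It lies in the proximal part of chromosome 12, where the 160 genes below 70 Mb had a median 129 share of 51.1%. Lefty2 leaned to 129, with 3863 from 129 and 2224 from CAST and a share of 63.5% ± 7.51 (SD, n = 5 lanes), above 50% in every lane (53.1% to 69.1%). Without its 4 highest cells its 129 share was 58.4%.

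The other 4 genes were within about 1 lane SD of even or a little beyond it. Lefty1 gave 3594 from 129 and 2779 from CAST, a share of 56.4% ± 8.83 (SD, n = 5 lanes), and lanes fell on both sides of 50% (43.3% to 63.4%). Weighting cells equally rather than by value gave Lefty1 a 129 share of 68.1%, past 2-fold, and without its 4 highest cells the share was 50.0%. The 129 share of Smad6 was 44.5% ± 4.64, that of Smad7 47.0% ± 2.71 and that of Nodal 51.6% ± 2.25 (SD, n = 5 lanes).

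**Figure D2:**
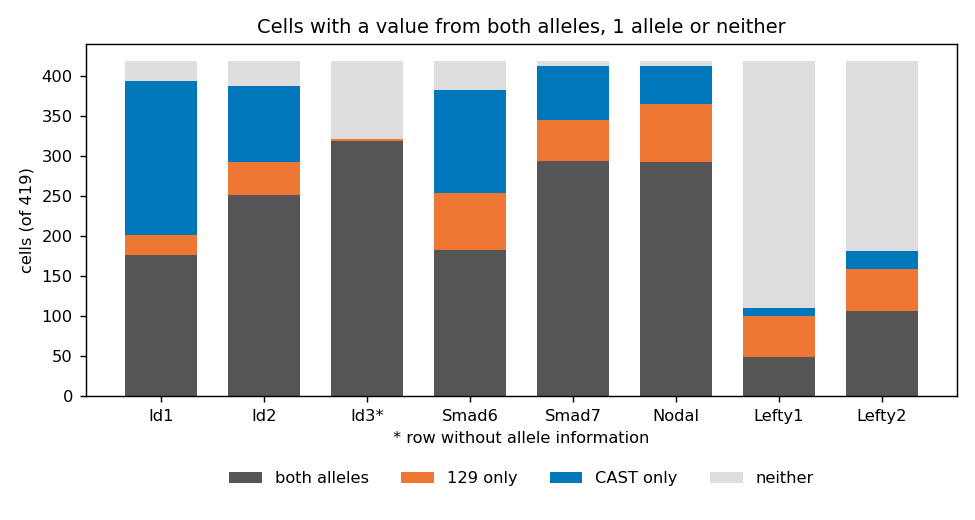
Number of cells, of 419, with a value above 0 from both alleles, from 129 only, from CAST only or from neither, for each gene. Id1 has 193 cells with CAST only against 24 with 129 only, Lefty1 has 51 with 129 only and 10 with CAST only, and the row of Id3 holds no allele information.

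The next measure was whether both alleles of a gene are on in the same cells. Lefty1 was on from both alleles in 49 cells, from 129 only in 51, from CAST only in 10 and from neither in 309, whereas alleles on independently at the same rates would give 14.1 cells with both, a ratio of 3.48. Lefty2 was on from both alleles in 107 cells, from 129 only in 52, from CAST only in 22 and from neither in 238, against 49.0 expected, a ratio of 2.19. For genes whose mean lies in the range of the 8 (8.50 to 59.0 per cell, 5226 genes) the median of that ratio was 0.993, but a gene that is on in most cells from both alleles cannot have a high ratio. Part of the agreement rests on values of 1: in 18 of the 49 Lefty1 cells and 32 of the 107 Lefty2 cells both tables held exactly 1. Equal values above 1 occurred as well, for example 5 from each allele in a Lefty1 cell and 10 from each in a Lefty2 cell. Equal values were not confined to the Lefty genes. Both tables held exactly 1 in 18 Id1, 6 Id2, 21 Smad6, 4 Nodal and 0 Smad7 cells. Larger equal values included 31 from each allele in an Id1 cell and 36 from each in a Smad6 cell. Whether equal values are reads counted in both tables was not tested. With at least 10 needed per allele, 13 cells had both Lefty1 alleles against 1.29 expected and 32 had both Lefty2 alleles against 5.78, so the ratios were higher at that limit.

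Among the cells that had a high total, single-allele cells remained frequent. Of the 37 cells with Lefty1 at 10 or more, 23 had both alleles, 13 had 129 only and 1 had CAST only, and of the 72 such cells for Lefty2, 55 had both, 13 had 129 only and 4 had CAST only. The highest cells used both: Lefty1 had 609 from 129 and 443 from CAST in its highest cell and 472 from 129 and 339 from CAST in the third. The highest Lefty2 cell had 792 from 129 and 295 from CAST, while the fourth had 226 from 129 and 45 from CAST.

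The alleles' levels agreed over cells for 3 of the 7 genes. Spearman's rho between 129 and CAST over 419 cells was 0.62 for Lefty2 (0.55 to 0.69 over lanes), 0.57 for Lefty1 (0.43 to 0.66) and 0.56 for Id2 (0.45 to 0.62), each above 0.5. A rho of at least 0.5 was found in 6.00% of all autosomal genes with allele information and in 3.69% of those with a mean in the range above, among which the median was -0.12, with quartiles of -0.30 and 0.084. For the Lefty genes many shared zeros enter the rank correlation. Id2 is on in nearly every cell, and its alleles were high or low together over a wide range of levels: both were seen in 252 cells, 129 only in 41, CAST only in 94 and neither in 32, with 242 expected with both. All of these points share library preparation, lanes and the scaling to a common total.

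In the other 4 genes the rho between alleles was below 0.5. The rho between alleles was 0.21 for Smad7 (0.14 to 0.31 over lanes), 0.12 for Nodal (0.00 to 0.21), 0.10 for Id1 (-0.03 to 0.16) and -0.06 for Smad6 (-0.16 to 0.01). With all rows of a gene summed, Smad7 had 0.33. Among genes in the same range of means Smad7 stood at the 85.2 percentile of this measure, Nodal at 78.2, Id1 at 77.1 and Smad6 at 56.7. Smad6 has the lowest and Smad7 the highest mean of that range, so their percentiles are not among genes of like level. Nodal was read from both alleles in 293 cells, from 129 only in 72, from CAST only in 47 and from neither in 7, beside 296 expected with both. Id1 was read from both in 177 cells against 177.5 expected. Smad6 was read from both in 47.8% of the cells where it was on, a ratio to the expected number of 0.968. With at least 10 needed per allele the ratio was 1.66 for Id1 and 1.77 for Smad6, beside 1.55 for Id2. At that limit it was 1.07 for Nodal and 1.04 for Smad7. By the rho between alleles the targets of each pathway were split: Id2 was with the Lefty genes, and Id1, both inhibitory Smads and Nodal were not. By the ratio at the stricter limit, Id1 and Smad6 were not set apart from Id2.

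**Figure D3:**
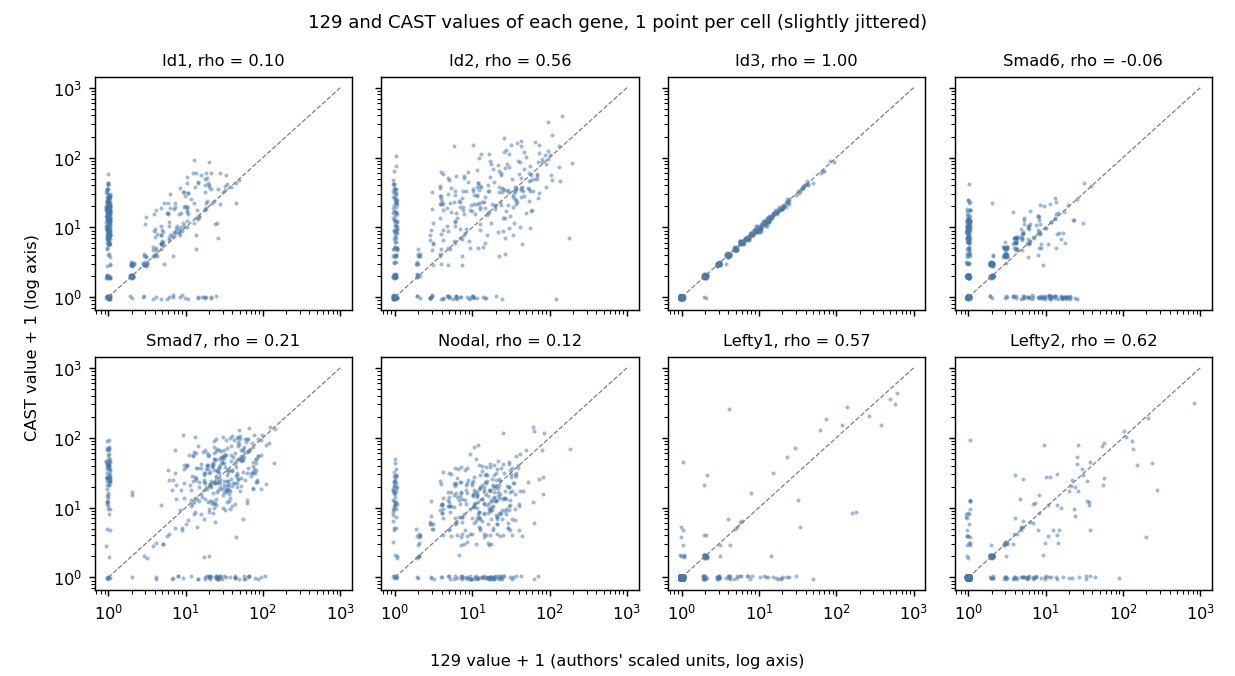
The 129 value (x axis) and the CAST value (y axis) of each gene in each of 419 cells, plus 1 on log axes in the authors' scaled units, with the diagonal dashed and Spearman's rho above each panel. Id2, Lefty1 and Lefty2 run along the diagonal (rho 0.56, 0.57 and 0.62), Id1 and Smad6 have many cells on an axis, and Id3, without allele information, lies on the diagonal.

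Splitting the variation in the same way, intrinsic noise (each allele divided by its mean, then 0.5 times the average squared gap between them) was 1.13 for Id2, 0.572 for Smad7, 0.936 for Nodal, 1.34 for Id1 and 1.60 for Smad6, beside a median of 1.04 for genes in the same range of means. Shared noise (the covariance of the mean-scaled alleles) was 1.40 for Id2, 0.816 for Id1, 0.518 for Nodal, 0.310 for Smad6 and 0.267 for Smad7, beside a median of -0.053. The means of Smad6 and Smad7 are the lower and upper ends of that range, so its medians are not matched to their levels. In Id2 alone of these 5 genes the shared part exceeded the intrinsic part. Lefty1 had 5.57 intrinsic and 32.3 shared, and Lefty2 4.85 and 16.7, values that rest on the few high cells.

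Co-occurrence of the Id and Lefty genes, as readouts of the BMP and the Nodal branch, was near the level set by their separate shares. Over the 6 pairs, the number of cells with both genes was 0.976 to 1.06 times the number expected from their separate shares, and rho lay between 0.00 and 0.10. Id1 and Lefty1 were both on in 101 cells against 103.4 expected, Id2 and Lefty1 in 103 against 101.6, and Id3 and Lefty1 in 89 against 84.3. For Lefty2 the cells with both numbered 171 with Id1 against 170.2 expected, 167 with Id2 against 167.2, while Id3 and Lefty2 had a ratio of 1.02. Because Id1 and Id2 are on in over 90% of cells, these ratios have little room to differ from 1.

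The classes of cells by number of Lefty genes differed little in Id1. All 3 Id genes were on in 72.0% of the 75 cells with both Lefty genes, in 69.5% of the 141 cells with 1 Lefty gene and in 64.0% of the 203 cells with none. The medians of Id1 in those cells were 13, 12 and 12, those of Id2 30, 19 and 22, and those of Id3 10, 6 and 6. Nodal had medians of 30 in cells with both Lefty genes, 24 in cells with 1 and 18 in cells with none. The cells with the highest Lefty values were mostly high in Id2. Of the 5 highest Lefty1 cells 4 had an Id2 value of 145 or more and the other had 47, and the 5 highest Lefty2 cells, 2 of which are among those of Lefty1, had Id2 between 38 and 269, beside a median of 23 over all cells. In the other direction, the 4 highest Id2 cells had 529, 412, 298 and 276, and all 4 had Lefty1 at 0, with Lefty2 at 0 in 3 and at 6 in the fourth. The fifth highest Id2 cell, at 269, had Lefty1 at 73 and Lefty2 at 271. With a value of at least 10 required, 3 of the ratios moved furthest from 1: Id3 with Lefty2 to 1.35, Id2 with Lefty1 to 1.26 and Id3 with Lefty1 to 1.23, on 37 Lefty1 cells and 72 Lefty2 cells.

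Over all 28 pairs of the 8 genes, 5 had a rho of at least 0.2, and none of these joins an Id gene with Nodal or a Lefty gene. Lefty1 and Lefty2 stood highest at 0.44 (0.29 to 0.53 over lanes); they were both on in 75 cells against 47.5 expected, and Lefty2 was on in 68.2% of the 110 cells with Lefty1 and in 34.3% of the 309 without. Id1 and Id3 had a rho of 0.25 (0.13 to 0.32), and Smad6 and Smad7 0.24 (0.01 to 0.44). Nodal had a rho of 0.23 with Lefty2 (0.08 to 0.27) and of 0.22 with Lefty1 (0.01 to 0.41). The lowest values were those of Smad6 with Lefty1 at -0.18, Smad6 with Lefty2 at -0.14 and Smad7 with Nodal at -0.13. Id2 had no rho of 0.2 with any of the others, its highest being 0.19 with Smad6.

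Of all 16187 genes compared with each, few reached 0.2: 0.673% for Id1, 3.79% for Id2, 0.0556% for Id3, 1.55% for Smad6, 1.59% for Smad7, 1.40% for Lefty1, 0.525% for Lefty2 and 0.550% for Nodal. The other 7 genes of the set gave 2 such partners each for Lefty1, Lefty2 and Nodal, 1 each for Id1, Id3, Smad6 and Smad7, and 0 for Id2. A rho at this level over sparse values is weak, and it was lower for most of the 5 pairs when read from 1 allele. With 129 values alone, 2 pairs reached 0.2, Lefty1 with Lefty2 at 0.43 and Lefty2 with Nodal at 0.21. With CAST values alone 2 pairs did, Lefty1 with Lefty2 at 0.33 and Id1 with Id3 at 0.24, although the tables do not tell the alleles of Id3 apart.

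**Figure D4:**
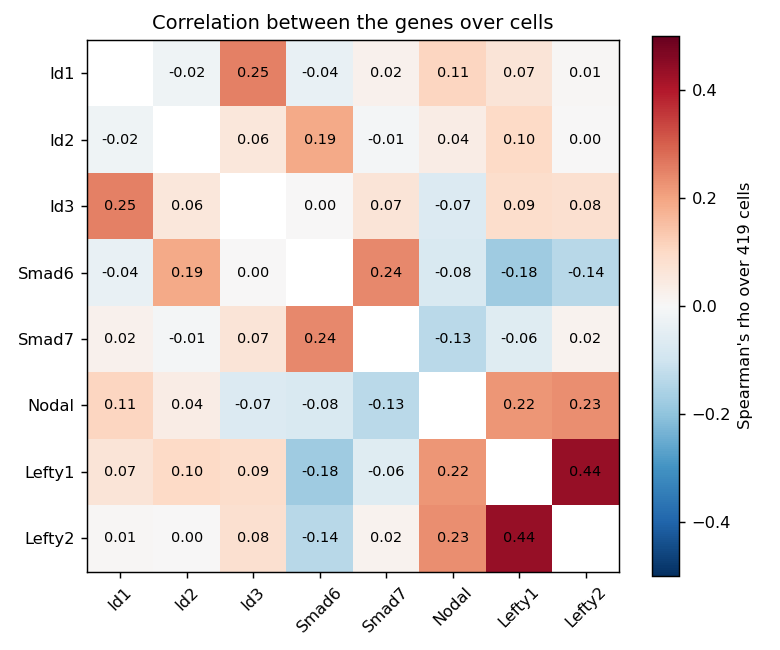
Spearman's rho over 419 cells for each pair of the 8 genes, on values divided by the cell total; red is positive and blue negative. Lefty1 with Lefty2 is highest at 0.44, the 6 Id and Lefty pairs lie between 0.00 and 0.10, and Smad6 with Lefty1 is lowest at -0.18.

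The Lefty genes' close companions included genes next to them on chromosome 1. Among 16187 genes, the 2 with the highest rho to Lefty1 were Lefty2 (0.44) and Tmem63a (0.41, 0.35 to 0.52 over lanes). For Lefty2, Lefty1 (0.44) and Tmem63a (0.36, 0.28 to 0.42) were among the 3 highest. Tmem63a, a membrane channel gene, starts 9.01 kb after the start of Lefty1. It is not a near copy: 2.32% of its 31-base words occur in another gene, and that gene is neither Lefty1 nor Lefty2.

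Of the genes around the pair, 11 others within 500 kb of Lefty1 had a rho between -0.09 and 0.13 with Lefty1 and between -0.03 and 0.16 with Lefty2, the highest being Wdr26 with both. Sde2, which lies before Lefty2, had 0.07 with Lefty1 and 0.10 with Lefty2. Tmem63a was on in 52.5% of cells with a mean of 4.71. Leaving out the 4 highest cells of Lefty1 and of Lefty2 gave 0.38 for Lefty1 with Tmem63a and 0.33 for Lefty2 with Tmem63a.

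The relation was seen within an allele and across alleles. Lefty1 with Tmem63a had a rho of 0.37 between the 129 alleles and 0.29 between the CAST alleles, and of 0.24 for 129 Lefty1 with CAST Tmem63a and 0.25 for CAST Lefty1 with 129 Tmem63a. Lefty2 with Tmem63a had 0.33 between the 129 alleles, 0.24 between the CAST alleles, and 0.28 and 0.29 across in the same order. Lefty1 with Lefty2 had 0.43 between the 129 alleles, 0.33 between the CAST alleles, 0.45 for 129 Lefty1 with CAST Lefty2 and 0.26 for CAST Lefty1 with 129 Lefty2. In the Lefty pair both the highest and the lowest of the 4 values were thus across alleles. The rho of this pair from both alleles summed had an SD over lanes of 0.09.

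**Figure D5:**
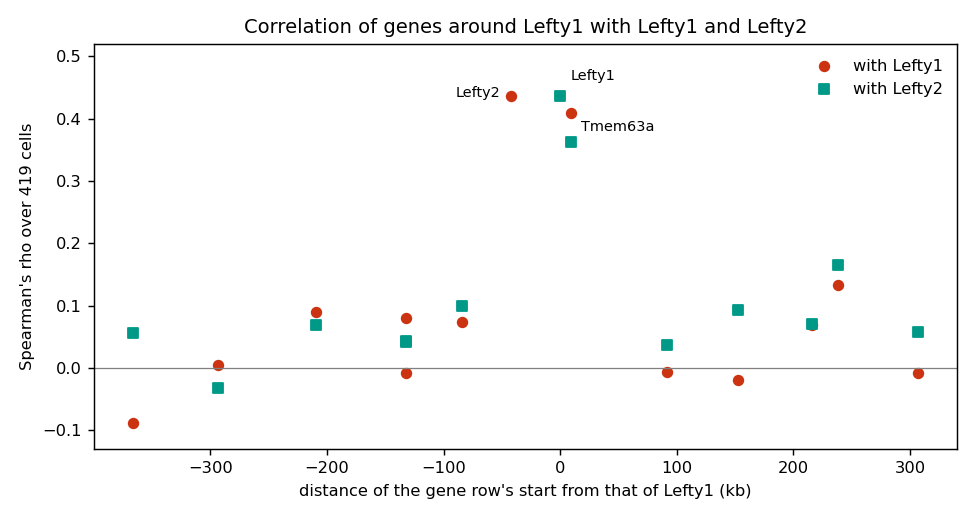
Spearman's rho over 419 cells of 14 genes within 500 kb with Lefty1 (circles) and Lefty2 (squares), against the distance of the gene row's lower coordinate from that of Lefty1 in kb. Lefty1, Lefty2 and Tmem63a stand between 0.36 and 0.44, and the other genes plotted lie at 0.16 or below.

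Beyond these neighbours, Lefty1 was most alike Syt13 (rho 0.32), a synaptotagmin, and Skil (0.31), a repressor of Smad signalling that is itself a known target. At the low end were Klf4 (-0.34), a naive pluripotency factor, Nexmif (-0.33) and Mllt6 (-0.32). Of the 33 cell-state markers on in at least 20% of cells, 7 had a rho of -0.2 or lower with Lefty1 and 0 had 0.2 or higher. These 7 are all pluripotency genes: Klf4, Esrrb (-0.28), Utf1 (-0.25), Tfcp2l1 (-0.23), Tbx3 (-0.22), Pou5f1 (-0.21) and Zfp42 (-0.20). The 33 include all 8 naive and all 4 core pluripotency markers, of which Nanog, Klf2, Dppa5a, Sall4 and Sox2 were not past -0.2. What share of all genes lay at -0.2 or lower was not computed. Lefty2 had none of the 33 past 0.2 in either direction, and its next companions were Lgr4 (0.33), an R-spondin receptor, and Mrc2 (0.29), with Cdc20 (-0.29), Aard (-0.28) and Ccdc3 (-0.25) lowest.

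Id2 also had cell-state markers past 0.2, 3 of 33 at 0.2 or higher and 8 of 33 at -0.2 or lower. Over all genes 3.79% reached 0.2 with Id2, and the share at -0.2 or lower was not computed. Esrrb, Zfp42, Pou5f1, Tfcp2l1 and Utf1 were past -0.2 with both Id2 and Lefty1. Id2 had a rho of -0.36 with Pou5f1, -0.28 with Esrrb, -0.25 with Zfp42 and Vim, -0.24 with Klf2, -0.22 with Tfcp2l1 and -0.21 with Nanog and Utf1, and of 0.31 with Gata3, 0.28 with Krt18 and 0.26 with Krt8, which mark the trophectoderm among other epithelia. The genes most alike Id2 were Parva (0.40), Patj (0.39), Slc25a24, Cdcp1 and Ctdspl (0.38 each), of which Parva serves cell adhesion and Patj cell polarity. Lowest were Mymx and Tdh (-0.43 each) and Akr1b3 (-0.38), where Tdh is the threonine dehydrogenase known for its high level in mouse embryonic stem cells. Gata3, Krt8 and Krt18 averaged 5.28, 177.9 and 113.9 per cell. Their medians were 0, 5 and 5, and their highest values 160, 5998 and 5524. The share of other cell types or of differentiating cells in the relation was not tested.

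Id1 and Id3 differed from Id2 in their partners. Id1 was most alike Rarg (0.35), a retinoic acid receptor, Myrf (0.32), Gbx2 (0.32), a homeobox gene of the stem cell state, Ajuba and Zfp532 (0.31 each), and least alike Ptp4a1 (-0.30), Ass1 (-0.28) and Ube2h (-0.26). Among markers it had a rho of 0.22 with Sox7 and 0.20 with Pou5f1, and none at -0.2 or lower. Id3 was most alike Dppa3 (0.28), a gene of germ cells and naive stem cells, then Id1 (0.25), Brpf3, Nmt2 and Crip1 (0.24 each), with Ptprk and Cenpb (-0.26 each) and Pipox (-0.23) lowest. Sox2 was the marker with a rho past 0.2 with Id3, at 0.23.

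The inhibitory Smads shared Bmp4 as a companion: this BMP ligand had a rho of 0.32 with Smad6 (0.20 to 0.50 over lanes) and 0.31 with Smad7 (0.18 to 0.52), and of -0.26 with Lefty1 (-0.30 to -0.24). Smad6 was most alike Htra1 (0.45), a secreted protease, Ddah1 (0.43), Nup62cl (0.41) and Nexmif (0.40), and least alike Lin28a (-0.36), Actn3 (-0.34) and Qser1 (-0.29). Smad7 was most alike Gprc5a (0.40), Ctnna1 and Col4a2 (0.37 each), Cmtm7 (0.36) and Tead4 (0.34), and least alike Gli1 (-0.32), the Hedgehog effector, Pcyt1b (-0.30) and Cbx1 (-0.29). Tbx3 was the marker past 0.2 with each of them, at 0.21 with Smad6 and 0.24 with Smad7.

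Nodal was most alike Cdkn1a (0.35), the cell-cycle inhibitor p21, Eda2r (0.31), Rbpms2 (0.30), Abcb1b and Foxo3 (0.28 each). Cdkn1a and Eda2r are known targets of p53. At its low end stood Ctnnal1 (-0.25) and Rhox6 (-0.24). None of the 33 markers was past 0.2 with Nodal in either direction.

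The pathway genes around the 8 were read unevenly. Of 9 BMP ligands 4 were on in at least 50% of cells, led by Bmp4 with a mean of 25.6 per cell, Bmp8b with 13.6, Bmp8a with 4.82 and Bmp7 with 2.79. Of 5 BMP receptors 2 were, Bmpr1a (79.2) and Bmpr2 (65.9). On the Nodal side the co-receptor Tdgf1 averaged 254 and the ligand Gdf3 68.4, and 4 of 6 receptors were on in at least 50% of cells, namely Tgfbr1 (48.3), Acvr2a (26.8), Acvr1b (21.1) and Acvr2b (12.5). Of 6 Smads 5 were, led by Smad3 and Smad4 at 46.2 and 46.1, and Smad3 was past 2-fold between alleles with a 129 share of 32.9%.

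Most intracellular inhibitors were read in nearly all cells, and most extracellular ones were not. All 10 intracellular inhibitors were on in at least 50% of cells, with a median share of 95.2%, led by Skil (91.1) and Ppm1a (76.2), a Smad phosphatase. Of 12 extracellular inhibitors 3 were, Fstl1 (41.3), Twsg1 (40.1) and Bambi (8.89), with a median share of 22.7%. The 6 nuclear partners were all on in at least 50% of cells (median 96.3%), led by Trim33 (46.1) and Tcf7l1 (43.7), and 2 of 3 convertases were, Furin (31.4) and Pcsk6 (19.6). Of 14 other targets of the pathways 0 reached 50%, with a median share of 19.2%; the highest were Gata2 (5.26), Eomes (4.13), T (2.30) and Mixl1 (1.39). Over the 11002 autosomal genes that passed the filter the median share of cells on was 95.0%, but many genes of these lists are below that filter.

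Each of the 8 genes had 0 to 5 pathway genes at a rho of 0.2 or higher. The lists include Smad6, Smad7, Lefty1, Lefty2 and Nodal but not the Id genes, so Id1 with Id3 is not counted. At that limit the share of all 16187 genes was 3.79% for Id2, 1.55% for Smad6, 1.59% for Smad7 and 1.40% for Lefty1. It was 0.525% for Lefty2, 0.550% for Nodal, 0.673% for Id1 and 0.0556% for Id3. The share of all genes at -0.2 or lower was not computed. Id1 and Id3 had 0 of 58 pathway genes at 0.2 or higher and 0 at -0.2 or lower. Id2 had 5, Bmp8b (0.29), Bmpr1a and Furin (0.24 each), Bmpr2 (0.22) and Twsg1 (0.21), and 1 in the other direction, Inhbb (-0.31), which encodes an activin subunit. Smad6 had 4 of 57, Bmp4, Smad7, Smad3 and Nedd4l (0.22 each for the last pair), and 1 in the other direction, Fstl1 (-0.22). Smad7 had 5, Bmp4, Smad6, Pmepa1 (0.24), Bmpr1a (0.23) and Bmp8a (0.20). Nodal had 2, both Lefty genes. Lefty1 had 4 of 57, Lefty2, Skil, Nodal and Foxh1 (0.22), and 1 in the other direction, Bmp4, and Lefty2 had 3, Lefty1, Nodal and Foxh1 (0.23). Foxh1, the DNA-binding partner of the Nodal Smads, was thus past 0.2 with both Lefty genes.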

How the data were processed

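Single-cell RamDA-seq of 419 cells was used. The authors deposited 2 tables, 1 per allele, of whole numbers that are treated here as a score, since they are scaled and rounded and not raw read counts. The submitters' processing notes name Bowtie 1.1.2 and mm10 without a role; the steps of allele assignment and scaling are not given in the sources used here. Of 117762 rows, 116824 matched GENCODE M21, and the others hold 0.360% of all values. All columns matched a sample title, no cell was left out, no doublet caller was run, and 0 pairs of cells were identical.

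The genes, lists and thresholds were chosen with earlier results of these data known. The limits of 0.5 for the rho between alleles, 0.2 for the rho between genes and 50% of cells were set after values were seen. Rows were scored by the squared gap between alleles after a factor per cell, and those scoring under 0.5 of their sum were taken as without allele information (543 of 11002 autosomal genes). Correlations between genes were computed on values divided by the cell total, for genes on in at least 20% of cells.

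Named genes are the 8 members, up to 4 genes per list by mean, and for each member the 5 highest and 3 lowest genes by rho, without predicted symbols; some genes that this rule picks are left out of the text. Genes past 0.2 in the lists, genes within 500 kb of Lefty1, Smad3's allele share and single markers were named after their values were seen. The measures were tested on simulated data. Calculations used Python 3.11.15, numpy 2.4.6, pandas 2.3.3, scipy 1.17.1, Biopython 1.88 and matplotlib 3.10.9. Alternatives were other thresholds for on, summed rows, each lane left out, single alleles, unscaled values and high cells left out.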

Additional observations from a re-analysis of the deposited data

How the results depend on the processing

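Of 666 recomputed values over 72 results, 591 stayed within the spread over lanes (for counts of genes or pairs, within 1.5 times the full count), 75 moved further and 0 changed sign as called values. All 360 values with 1 lane left out stayed within these limits. Leaving out 1 of 5 lanes of similar size can hardly move a value by the SD over single lanes. These 360 of the 666 values therefore say little about stability. With 1 lane left out, the number of pairs with a rho of at least 0.2 was 4 to 6. That number was 5 in the full data, 2 from 129 alleles alone, 2 from CAST alleles alone and 1 with 129 of the first gene and CAST of the second; the cause was not tested. The number of genes past 2-fold between alleles was 2 when single-cell shares were averaged, since Lefty1 joined Id1. With a value of at least 10 required, 4 genes rather than 6 were on in at least 50% of cells. The rest that moved are mainly shares of cells and ratios under a stricter limit for on, and correlations and ratios read from single alleles. The alternatives around Tmem63a and the scaled allele correlation were chosen after seeing the data. No paired analysis was possible because the series has 1 group of cells, whose numbers only name them, and no second group to pair them with; the alleles were compared within cells. The values describe 1 sample; shares of cells depend on depth, which is unknown.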
